A study of Mus musculus with 18 samples.

Results

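The comparison set cultures on day 2 against cultures on day 1, the step over which most genes of DNA replication and mitosis rose in cells grown from mouse kidney tubules. Its members are the 3 libraries labelled day 2 (replicates A, B and C) and the 3 labelled day 1, chosen by their sample titles, 6 of the 18 libraries of the series. All 18 came from wild type C57BL/6 female mice of 6 weeks (C57BL/6J in the growth protocol). Kidneys were minced and digested with collagenase, and the tubules were enriched on a Percoll density gradient and seeded on plastic, where they stayed with no passage and no drug or other agent. Days 1 and 2 differ from each other only in the time since plating. Day 0 and days 4, 7 and 14 make up the rest of the series. The replicates are called biological, but neither separate animals nor separate cultures are stated, nor whether animals were pooled. The p-values therefore rest on how much these libraries differ within a day, and that may be technical spread alone.

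Most cells of the adult kidney tubule rest outside the cell cycle. A cell that enters it makes D and E type cyclins, whose kinases free the E2F factors to switch on genes for licensing replication origins and for copying DNA, and later the B-MYB and FOXM1 factors switch on the kinases, motors and kinetochore proteins of mitosis. Isolation and plating also set off an acute response of immediate early factors, oxidant defence, hypoxia genes, heat shock proteins and translation control, which in injured tubules usually comes before division. Surviving proximal tubule cells are known to divide again after injury and to replace lost neighbours.

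Estimated counts per library ran from 24350985 to 29922994 on days 1 and 2. Expression is in CPM, counts scaled to 1000000 per library on TMM-scaled library sizes, written library by library in the order A, B, C. Fold changes (log2, with the standard error after the ± sign) and adjusted p-values are from edgeR's quasi-likelihood test in 1 model of the whole series. Called means an adjusted p (Benjamini-Hochberg) below 0.05. Mitochondrially encoded transcripts took 3.57 to 4.95% of the counts on day 1 and 1.56 to 1.90% on day 2. Defining proximal tubule markers were present on both days: Slc34a1, the apical phosphate transporter, had 3723, 5281 and 2600 CPM on day 1 and 863, 422 and 468 CPM on day 2, and Lrp2, the endocytic receptor megalin, had 131, 231 and 114 CPM and then 33.0, 22.6 and 34.3 CPM. Both fell, with log2 fold changes of -2.73 ± 0.32 and -2.40 ± 0.35. Outside these days, day 7 replicate C stood apart from its replicates, and it enters the shared estimate of the spread.

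The step was large and ran in both directions. Of 18754 genes tested, 3186 (17.0%) were higher on day 2 and 3283 (17.5%) lower, with a median log2 fold change of 0.035 over all genes. At a fitted change of 2-fold or more there were 1237 and 1448. With TMM scaling 49.3% of the called genes were higher, against 44.97% with DESeq2's size factors, 71.5% (5492 higher, 2185 lower) with library sizes alone and 74.3% (5288 and 1832) with limma on log2(TPM + 1). Those settings moved the median of all genes up by 0.21 and 0.17 (log2). Changes below are relative to TMM, and lists whose direction turns with the scaling are named as such. Counts of list members are to be read beside the shares of all genes, 17.0% higher and 17.5% lower. A lack of overlap between the libraries of the 2 days was common as well. Of the 18754 genes, 4612 were higher and 4589 lower in each day 2 library than in each day 1 library. Without day 7 replicate C, 4085 genes were higher and 4179 lower. Of the genes that fell, 1822 were already lower on day 1 than on day 0, 1043 had risen on day 1, and 418 had not been called on day 1. Among those that rose, 1044 had also risen on day 1, 1174 had fallen and 968 had not been called. For comparison, day 1 exceeded day 0 in 33.1% of all genes tested and was below it in 37.1%, and both contrasts share the day 1 libraries.

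The 4 genes that mark the step for this comparison separated the days without overlap. Top2a, the topoisomerase that untangles sister chromosomes (ENSMUSG00000020914, chromosome 11, 98992943 to 99024189 in GRCm38), had 1.20, 0.727 and 1.89 CPM on day 1 and 47.7, 100.4 and 77.6 CPM on day 2. Cdk1, the kinase that drives entry into mitosis (ENSMUSG00000019942, chromosome 10, 69335146 to 69352938), had 1.77, 0.727 and 2.43 CPM and then 36.1, 80.1 and 67.1 CPM. Cenpf, a protein of the outer kinetochore (ENSMUSG00000026605, chromosome 1, 189640606 to 189688086), had 0.177, 0.171 and 0.181 CPM and then 10.54, 30.0 and 22.0 CPM. In all 3 genes each day 2 library stood more than 10-fold above each day 1 library, and among the day 2 libraries A was the lowest and B the highest. P4ha1, a hypoxia-induced subunit of the enzyme that hydroxylates collagen prolines (ENSMUSG00000019916, chromosome 10, 59323296 to 59373304), went the other way, from 333, 387 and 328 CPM to 133, 71.5 and 92.2 CPM. The log2 fold changes were 5.86 ± 0.66 for Top2a, 5.19 ± 0.58 for Cdk1, 6.84 ± 0.77 for Cenpf and -1.82 ± 0.24 for P4ha1, with adjusted p of 9.52e-06, 9.66e-06, 9.98e-06 and 3.07e-05. The means differed 59.1-fold, 37.2-fold and 118-fold upward for the first 3 and 3.53-fold downward for P4ha1. From day 0 to day 1 Top2a and Cdk1 had not been called (-1.31 and -0.35), Cenpf had fallen by 2.75 and P4ha1 had risen by 2.53 (log2). For each of the 4 the day 2 step differed from the day 1 step, with adjusted p of 0.000156, 0.000555, 8.93e-05 and 1.92e-07 for that difference. In bulk RNA, more cells in the cycle and more of these transcripts per cell cannot be told apart.

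**Figure D1:**
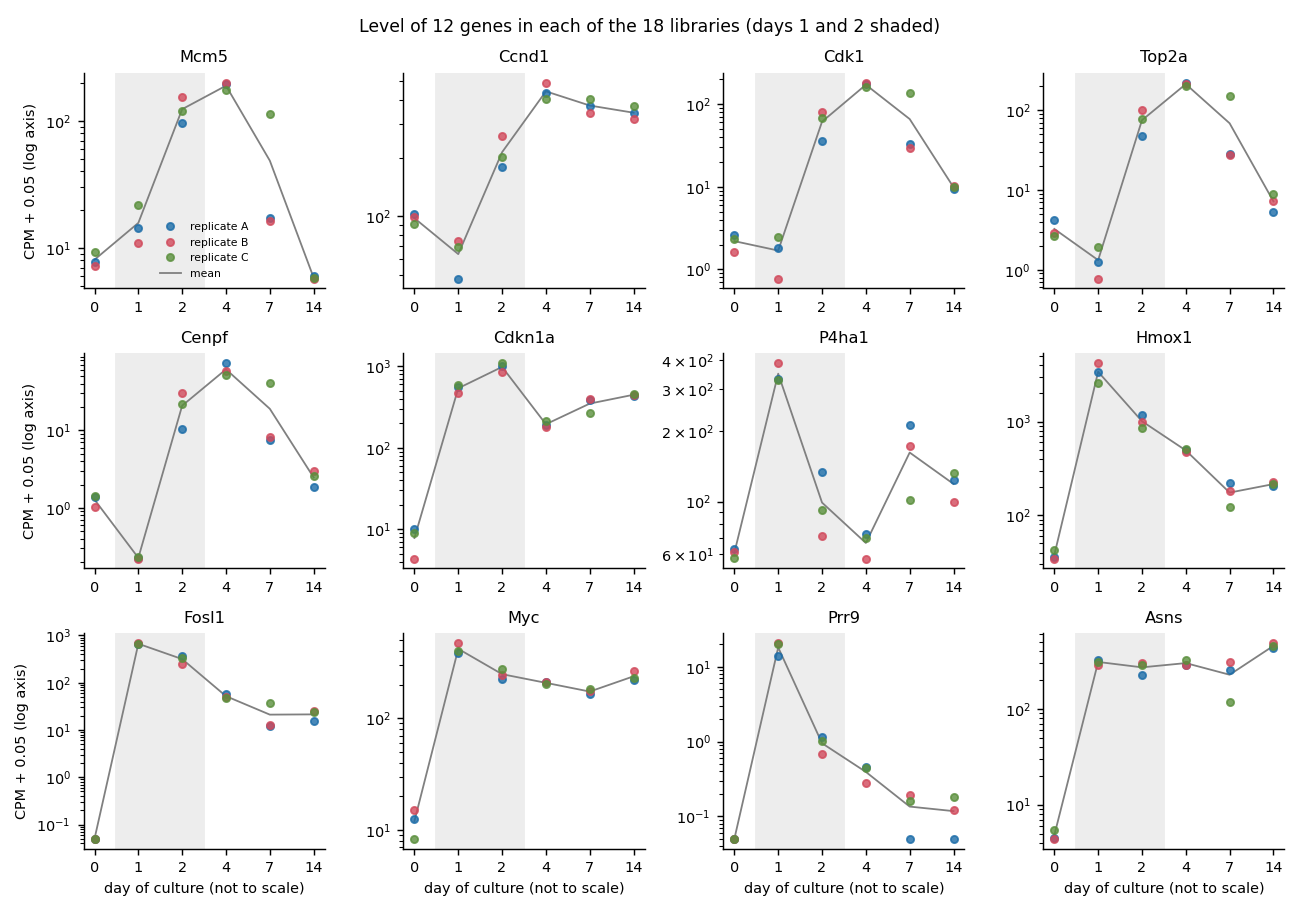
Level of 12 genes in each of the 18 libraries, as CPM + 0.05 on a log axis against the day of culture (days evenly spaced, days 1 and 2 shaded; points are libraries, lines join day means). Mcm5, Ccnd1, Cdk1, Top2a and Cenpf rise between days 1 and 2 with no overlap, Cdkn1a has its highest mean on day 2, and P4ha1, Hmox1, Fosl1, Myc and Prr9 have theirs on day 1; Asns (not called) stays near 300 CPM.

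Genes of the G1 to S transition rose in part. Among 19 cyclins, kinases and E2F factors of this step, 12 rose and 1 fell (median log2 fold change 0.93). Ccnd1, the cyclin D1 that couples growth signals to the cycle, went from 47.7, 74.1 and 69.4 CPM to 180, 260 and 203 CPM (1.75 ± 0.16). Ccne1, the cyclin E1 of S phase entry, went from 1.95, 1.24 and 2.58 CPM to 22.2, 29.2 and 26.5 CPM (3.74 ± 0.47). Ccnd1 had fallen from day 0 to day 1, so its day 2 level was a reversal, while Ccne1 had already risen on day 1 from a day 0 mean of 0.712 CPM. E2f1, an activating E2F, rose by 2.93 and E2f8, an E2F that later shuts the program off, by 5.62 (log2). Cdk2, the partner of cyclin E, went from 26.5, 25.6 and 30.9 CPM to 57.1, 60.8 and 57.3 CPM (1.08 ± 0.16). Ccne2, the other E cyclin, had 13.1, 15.2 and 13.1 CPM and then 30.9, 36.4 and 37.4 CPM, with no overlap, but did not pass the test (adjusted p = 0.0658); its adjusted p was 0.0361, 0.0203 and 9.61e-07 without day 7 replicate A, B or C, and 9.61e-07 to 0.826 over the alternatives. E2f4, a repressor E2F of resting cells, fell by 0.23 (adjusted p = 0.0276), a call that was lost without day 1 replicate A or C, day 2 replicate B or C, or any day 14 replicate (adjusted p of 0.0554 to 0.121, and 0.00507 to 1 over the alternatives) and that turned to 0.01 with limma on log2(TPM + 1).

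Genes of origin licensing and DNA copying rose almost as a block. All 21 licensing and firing genes rose, with a median log2 fold change of 2.09. Their summed level went from 269, 244 and 309 CPM to 939, 1281 and 1095 CPM. Mcm5, a subunit of the replicative helicase (ENSMUSG00000005410), went from 14.4, 10.95 and 21.8 CPM to 96.8, 155 and 119 CPM (2.97 ± 0.56, adjusted p = 0.000726). Cdc6, which loads that helicase, had 1.63, 1.58 and 1.85 CPM and then 26.5, 39.8 and 34.0 CPM (4.30 ± 0.65), and Ticrr, needed to fire origins, rose by 4.92 ± 0.67. Gmnn, the inhibitor of relicensing, rose with them, by 2.40. The smallest rise in the list was that of Cdt1, the other loader of the helicase, from 17.3, 17.5 and 19.8 CPM to 27.7, 34.0 and 34.0 CPM (0.81 ± 0.29). It was already above its day 0 mean of 5.52 CPM on day 1, as were 10 of the 21 by the test (33.1% of all genes were higher on day 1 than on day 0).

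Among 39 genes of the replication fork and of nucleotide supply, 37 rose (median 1.84). Rrm2, the S phase subunit of ribonucleotide reductase, went from 9.84, 15.5 and 20.2 CPM to 184, 375 and 285 CPM (4.21 ± 0.36), and Uhrf1, which carries DNA methylation through replication, from 8.53, 7.79 and 14.2 CPM to 91.0, 136 and 123 CPM (3.51 ± 0.38). Pcna, the sliding clamp of the polymerases and a common proliferation marker, rose less, from 67.8, 67.3 and 68.9 CPM to 123, 140 and 141 CPM (0.99 ± 0.21). It had been at a mean of 34.5 CPM on day 0, so part of its rise came before day 1. The libraries of the 2 days did not overlap in any of these 3 genes. Dna2, a nuclease of Okazaki fragment processing, did not pass the test (1.13, adjusted p = 0.0952).

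The promoters of Mcm5 and Cdc6 are shown because E2F motifs were far more common in this group than among promoters in general. Each line holds the 150 bases before the RefSeq start of the gene (GRCm38.p6), in the gene's own direction, with motif matches in capitals: Mcm5 from chr8:75109359-75109508 on the plus strand and Cdc6 from chr11:98908001-98908150 on the plus strand.
Mcm5: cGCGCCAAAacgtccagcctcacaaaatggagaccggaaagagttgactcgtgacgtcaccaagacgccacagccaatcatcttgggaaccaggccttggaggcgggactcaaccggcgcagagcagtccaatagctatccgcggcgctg
Cdc6: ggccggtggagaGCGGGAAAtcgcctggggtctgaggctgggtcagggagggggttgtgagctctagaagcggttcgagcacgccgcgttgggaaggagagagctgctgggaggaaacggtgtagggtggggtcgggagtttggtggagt
The letters searched, on both strands, were TTTCCCGC, TTTGGCGC, TTCCCGCC and TTGGCGCC, which overlap each other. Over 300 bases (250 before the start to 50 after it), 23 of the 47 licensing and fork genes found in the table held such a match (48.9%), against 4.34% of 27025 genes. A gene can have several windows, here and for the motifs below, and was counted if any of them matched. By window the shares were 41.1% and 3.77%. Mean GC content was 59.4% in the group's windows and 53.8% in all windows; its part in the difference was not tested.

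The largest rises of the step were in mitosis. Of 26 mitotic kinases, cyclins and regulators 25 rose (median 3.97), of 41 spindle, kinetochore and chromosome genes 38 rose (4.11), and of 20 genes of cytokinesis and mitotic exit 19 rose (4.27). No member of the 3 lists fell. Ccnb1, cyclin B1, the partner of Cdk1, had 1.13, 0.471 and 1.23 CPM and then 30.6, 81.5 and 67.6 CPM (5.95 ± 0.71). Mki67, the antigen used to stain dividing cells, had 1.03, 0.813 and 1.20 CPM and then 25.8, 64.7 and 54.3 CPM (5.56 ± 0.73). Bub1, a kinase of the spindle checkpoint, had 0.389, 0.128 and 0.145 CPM and then 13.2, 29.8 and 23.0 CPM (6.57 ± 0.75). In each of these genes the lowest day 2 library was at least 20 times the highest day 1 library. Mybl2, which encodes B-MYB, rose by 4.03 ± 0.52 and Foxm1 by 3.48 ± 0.52, so both factors that switch on the mitotic genes were up with them on day 2. By the rule of the 10 largest rises among genes of at least 10 CPM, the list was Cenpf, Bub1, Iqgap3 (6.17), Ckap2l (6.17), Ube2c (5.99), Pclaf (5.96), Ccnb1, Esco2 (5.95), Plk1 (5.94) and Kif2c (5.91). Esco2 and Pclaf act at the replication fork, and the others in the spindle, its checkpoint, mitotic kinase signalling or cytokinesis.

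A few mitotic genes did not pass the test. Tpx2, a spindle assembly factor, had 39.8, 33.0 and 25.5 CPM on day 1 and 44.95, 75.7 and 69.2 CPM on day 2 (0.95, adjusted p = 0.112), after a rise of 4.18 (log2) on day 1 from a day 0 mean of 1.84 CPM. Zwint, a kinetochore protein, had 457, 357 and 412 CPM and then 522, 423 and 465 CPM (0.20, adjusted p = 0.126), after a rise of 1.59 on day 1. For these genes the day 1 and day 2 libraries overlapped or nearly met. Spc25 (0.70, adjusted p = 0.198), Pttg1 (0.15, 0.448) and Wee1 (0.36, 0.34) also missed the threshold. Spc25 is a kinetochore subunit, Pttg1 is securin, which holds back the separation of sister chromatids, and Wee1 restrains Cdk1.

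Over the 147 genes of the 5 replication and mitosis lists, 140 rose (95.2%), with a median log2 fold change of 3.24. On day 1, against day 0, 28 of these had risen and 24 had fallen (33.1% and 37.1% of all genes). From day 2 to day 4, 99 rose further and 1 fell, beside 19.4% and 22.1% of all genes. Top2a reached a mean of 214 CPM on day 4 and Cdk1 171 CPM, so day 2 was a point on the way up. Continued rises were spread unevenly: they counted 7 of 21 licensing genes and 16 of 39 fork genes, against 21 of 26 mitotic kinases, 37 of 41 spindle genes and 18 of 20 cytokinesis genes. The median day 4 step was 0.80 and 0.92 (log2) in the replication lists and 1.66, 1.53 and 1.56 in the mitotic lists. These lists differ in their levels on day 2, and the difference between them was not tested.

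The mitotic promoters of Top2a, Cdk1, Cenpf and Ccnb1 are shown for the CCAAT box, bound by NF-Y, and for the cell cycle homology region (CHR), an element of many genes of late cell cycle. The lines again give the 150 bases before the RefSeq start, in the gene's direction, here on the minus strand for all 4: chr11:99024190-99024339, chr10:69352913-69353062, chr1:189688087-189688236 and chr13:100786487-100786636. Matches to TTTGAA or TTCGAA (the CHR) and to CCAAT, on both strands, are in capitals.
Top2a: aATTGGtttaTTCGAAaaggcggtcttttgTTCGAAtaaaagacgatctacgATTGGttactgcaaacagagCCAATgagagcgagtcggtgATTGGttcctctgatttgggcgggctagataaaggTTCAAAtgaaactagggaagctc
Cdk1: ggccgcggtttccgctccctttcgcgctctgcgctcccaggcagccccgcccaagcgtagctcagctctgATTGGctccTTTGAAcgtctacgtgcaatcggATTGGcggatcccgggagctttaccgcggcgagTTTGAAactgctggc
Cenpf: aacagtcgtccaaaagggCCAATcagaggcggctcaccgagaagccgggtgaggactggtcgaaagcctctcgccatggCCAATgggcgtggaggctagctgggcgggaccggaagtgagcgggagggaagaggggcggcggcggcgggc
Ccnb1: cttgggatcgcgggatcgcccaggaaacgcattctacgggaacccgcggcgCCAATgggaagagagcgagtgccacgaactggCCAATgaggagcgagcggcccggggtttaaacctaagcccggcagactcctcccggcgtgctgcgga
In the 300-base windows, 51 of the 70 mitotic genes found in the table held a CHR match (72.9%), against 21.7% of 27025 genes, and 49 held CCAAT (70.0%), against 41.1%. By window the shares were 73.3% and 19.2% for the CHR, and 69.3% and 37.4% for CCAAT. The CHR and CCAAT letters are short, and neither motif contains the other, though their ends can share a base. In the stretches printed, Top2a and Cdk1 hold matches to both, Cenpf and Ccnb1 to CCAAT only, and nothing follows from that for the factors that bind there.

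**Figure D2:**
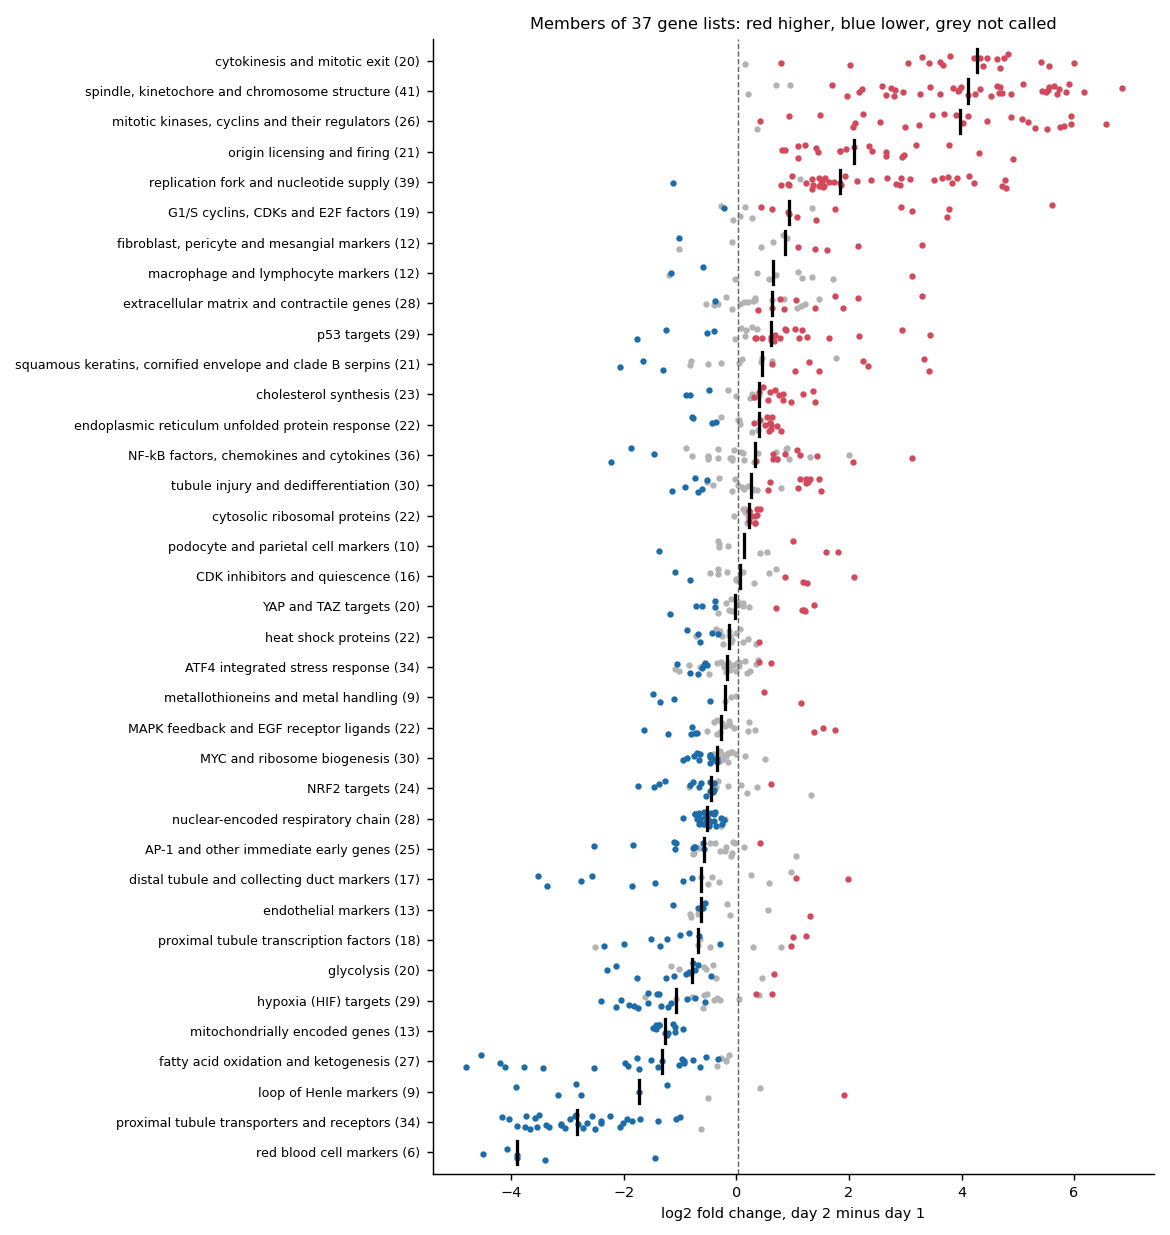
Log2 fold change, day 2 minus day 1, of each tested member of 37 gene lists (rows ordered by the list median, number of tested members in parentheses; red higher, blue lower, grey not called; black bar the list median, dashed line the median of all genes, 0.035). The 5 replication and mitosis lists sit at the top with medians of 1.84 to 4.27, and proximal tubule transporters, with a median of -2.84, near the bottom.

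The 3 day 2 libraries did not stand at the same level. Replicate A was the lowest of the 3 in 142 of the 147 replication and mitosis genes (96.6%) and B the highest in 137 (93.2%); over all genes tested A was the lowest in 32.7% and B the highest in 32.8%. The summed level of the mitotic kinases and cyclins was 561 CPM in A, 1042 in B and 891 in C, against 149, 129 and 146 CPM on day 1. The same order appeared reversed in what was fading: A was the highest in 28 of 34 proximal tubule transporters, in 20 of 29 hypoxia genes and in 447 of 728 genes that peaked on day 1. Over all genes tested A was the highest in 32.85%. Across all tested genes, log2 CPM of A correlated with the day 1 libraries at r = 0.953 to 0.966, and that of B at 0.929 to 0.947. Against the day 4 libraries it was 0.939 to 0.946 for A and 0.959 to 0.963 for B. A thus lay nearer to day 1 and B nearer to day 4, as a description over genes that share a library. On day 1, replicate B was the highest in 33 of 34 transporters, 25 of 29 hypoxia genes, 469 of the 728 genes that peaked on day 1 and 77.8% of all genes that then fell, against 46.8% of all genes tested. It was the lowest in 82 of the 147 replication and mitosis genes, against 29.95% of all genes tested. Its part in those results was not tested. Median log2 fold changes of the 5 replication and mitosis lists, with each library of days 1 and 2 left out in turn, were 1.69 or more in the fork list and higher in the other 4.

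Inhibitors of the cycle did not move together. Of 16 CDK inhibitors and quiescence genes, 4 rose and 2 fell, with a median of 0.06. Cdkn1a, the p53-induced inhibitor p21 (ENSMUSG00000023067), rose from 557, 470 and 587 CPM to 997, 856 and 1093 CPM (0.87 ± 0.21, adjusted p = 0.00482). It stood at 7.78 CPM on day 0 and 195 CPM on day 4, so its highest sampled mean was that of day 2. Ccng1, a p53-induced cyclin that does not drive the cycle, rose from 376, 298 and 358 CPM to 812, 775 and 864 CPM (1.25 ± 0.10). Cdkn2c and Cdkn2d, inhibitors of the cyclin D kinases, rose by 2.09 and 1.18. Klf9, a factor of quiescent cells, fell by 1.08 and Cdkn1c, the inhibitor p57, by 0.82 (log2), and 4 members fell without day 7 replicate C. Cdkn1b, the inhibitor p27, was low on both days and not called (1.06, 1.41 and 1.74 CPM, then 1.56, 2.32 and 2.96 CPM), and Cdkn2a had 0 counts in all 6 libraries.

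Targets of p53 rose as well. Among 29 of them 19 rose and 4 fell, with a median of 0.62. Their summed level went from 3315, 3121 and 3069 CPM to 4833, 4678 and 5055 CPM. Cdkn1a and Ccng1, given above among the cycle inhibitors, are members of this list too. Their rises are therefore part of that sum and of the 19, and the 2 lists are not separate observations. Trp53inp1, a p53 cofactor, went from 67.1, 46.0 and 55.7 CPM to 127, 113 and 140 CPM (1.17 ± 0.12), Eda2r, a death receptor, from 22.7, 9.46 and 17.2 CPM to 85.0, 64.1 and 75.6 CPM, and Phlda3, which restrains AKT, from 32.6, 21.1 and 41.5 CPM to 95.6, 94.8 and 106 CPM. Mdm2, the ubiquitin ligase of p53, was not called (0.17, adjusted p = 0.187), and neither was Trp53 itself (0.28, 0.108). Gtse1 (2.94) and Ckap2 (3.44) belong to this list and also act in mitosis, and Ckap2 is also counted among the spindle genes. Plk3, Fas, Xpc and Sertad1 went against the list, by -1.76, -1.25, -0.53 and -0.41; without replicate B of day 1 or of day 2, 2 members fell. From day 2 to day 4, 15 of the 29 fell and 7 rose, beside 22.1% and 19.4% of all genes.

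Growth genes had mostly been raised before day 2. In the list of MYC and ribosome biogenesis, 28 of 30 were higher on day 1 than on day 0 (33.1% of all genes), and 28 were higher on day 2 than on day 0 (38.9% of all genes). From day 1 to day 2, 13 fell and none rose, with a median of -0.34. Myc, a growth factor-induced regulator of cell growth, went from 385, 470 and 402 CPM to 224, 244 and 278 CPM (-0.75 ± 0.15), and Gnl3, a nucleolar GTPase, from 243, 268 and 226 CPM to 129, 124 and 131 CPM (-0.94 ± 0.08). The groups did not overlap in either gene, and both stayed above their day 0 means of 11.99 and 30.0 CPM. Without day 7 replicate C 22 of the 30 fell and 1 rose; 1 rose also without day 0 replicate C, day 2 replicate A, day 7 replicate B or day 14 replicate A. Limma on log2(TPM + 1) called 8 lower. Of 22 cytosolic ribosomal proteins 12 rose, by small steps (median 0.23), but 6, 2, 6 and 4 rose without day 1 replicate A, day 1 replicate B, day 2 replicate A or day 2 replicate C, and 21 with library sizes alone. Of 23 cholesterol synthesis genes 13 rose and 3 fell (median 0.41), after 15 had fallen from day 0 to day 1 (37.1% of all genes). Their mean summed level was 1991, 1344 and 1844 CPM on days 0, 1 and 2. Idi1, an isomerase of the pathway, went from 55.6, 52.6 and 46.3 CPM to 105, 159 and 141 CPM, and all 23 rose further to day 4.

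Many genes induced by low oxygen fell. In the list of hypoxia (HIF) targets, 16 of 29 fell and 2 rose, with a median of -1.08, and 10 fell without day 2 replicate B. Their summed level went from 5171, 5996 and 4702 CPM to 2641, 2197 and 2265 CPM, so the groups did not overlap. The sum had been no lower at the start, at 6883, 6077 and 5802 CPM on day 0, so the list as a whole did not peak on day 1. Plod2, which hydroxylates collagen lysines, went from 220, 244 and 153 CPM to 107, 84.2 and 73.5 CPM (-1.22 ± 0.17). Car9, a carbonic anhydrase of the cell surface and a standard hypoxia marker, went from 52.1, 45.7 and 42.3 CPM to 21.4, 7.02 and 13.3 CPM (-1.75 ± 0.44). Bnip3, a mitophagy receptor, went from 640, 704 and 584 CPM to 245, 107 and 159 CPM, and Vegfa, the vascular growth factor, from 301, 373 and 288 CPM to 138, 117 and 107 CPM. Day 2 replicate A was the highest of the 3 day 2 libraries in each of these 4 genes. Of the rise of P4ha1 on day 1, 13.3% was left on day 2, and it was still above day 0 (0.71, adjusted p = 0.0119). Across the list 14 members had been higher on day 1 than on day 0 and 5 lower, beside 33.1% and 37.1% of all genes. On day 2, 11 were above day 0 (38.9% of all genes) and 12 below it. Hif1a, the oxygen-regulated factor itself, rose slightly, from 201, 208 and 180 CPM to 239, 259 and 247 CPM (0.34 ± 0.09). Loxl2, a lysyl oxidase, rose by 0.63, a call that was lost without day 1 replicate A, day 1 replicate C or day 2 replicate B (adjusted p = 0.0713, 0.0505 and 0.0853, 0.0013 to 1 over the alternatives).

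The promoters of P4ha1 and Car9 are shown for the core of the hypoxia response element, ACGTG or GCGTG, searched on both strands and in capitals below (its forms overlap in CACGTG). They are the 150 bases before the RefSeq start, on the plus strand at chr10:59323146-59323295 and chr4:43506876-43507025.
P4ha1: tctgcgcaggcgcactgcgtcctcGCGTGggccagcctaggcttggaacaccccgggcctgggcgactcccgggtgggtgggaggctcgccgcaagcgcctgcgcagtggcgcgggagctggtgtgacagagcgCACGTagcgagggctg
Car9: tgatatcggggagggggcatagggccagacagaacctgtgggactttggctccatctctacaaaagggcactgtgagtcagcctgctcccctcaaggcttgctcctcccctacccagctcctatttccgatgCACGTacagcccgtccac
In the 300-base windows 20 of the 21 hypoxia genes found in the table held a match (95.2%), against 46.7% of 27025 genes. Counted by window, since a gene can have several, the shares were 80.0% and 43.8%. The motif is short and rich in CpG, and the group's windows had a mean GC content of 64.8% against 53.8%. Its part in the difference was not tested.

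Glycolysis fell beside the hypoxia list, with which it shares HIF as a regulator. Of 20 genes, 11 fell and 1 rose (median -0.79). Slc16a3, the lactate exporter MCT4, went from 259, 258 and 281 CPM to 103, 28.4 and 49.0 CPM (-2.14 ± 0.49), and Pfkfb3, which raises the activator of phosphofructokinase, from 180, 272 and 166 CPM to 39.6, 50.1 and 35.3 CPM (-2.31 ± 0.55). Ldha, lactate dehydrogenase A, went from 3421, 3456 and 3617 CPM to 2569, 1592 and 2118 CPM. The groups did not overlap in these genes. Pkm, the pyruvate kinase of growing cells, did not follow, at 1610, 1647 and 1651 CPM and then 2355, 2422 and 1937 CPM (0.45, adjusted p = 0.0781), and Hk1 rose by 0.67, a call lost without day 1 replicate A or day 2 replicate B (adjusted p = 0.0576 and 0.0697, 0.000472 to 1 over the alternatives). The number of genes lower was 7 without replicate B of day 1 or replicate B or C of day 2 and 17 without day 7 replicate C; it was 5 with limma on log2(TPM + 1). The number higher was 0 without day 1 replicate A or day 2 replicate B and 2 without day 7 replicate A or C.

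In the list of AP-1 and other immediate early genes, 10 of 25 fell and 1 rose (median -0.58). Fos, the AP-1 subunit that responds within minutes, went from 59.0, 99.0 and 35.8 CPM to 14.3, 10.7 and 8.49 CPM (-2.53 ± 0.41). It was highest on day 0, with a mean of 409 CPM, so its fall had begun before day 1. Fosl1, the AP-1 subunit FRA1 of migrating epithelium (ENSMUSG00000024912), was at 0 counts throughout day 0, at 672, 684 and 648 CPM on day 1 and at 370, 253 and 326 CPM on day 2 (-1.08 ± 0.33, adjusted p = 0.0216). Its groups were far apart, but the call was lost without day 1 replicate A, day 1 replicate B, day 2 replicate B or day 2 replicate C (adjusted p = 0.0509, 0.0527, 0.0889 and 0.0555, 4.72e-05 to 1 over the alternatives). Csrnp1, a cysteine- and serine-rich nuclear protein, peaked on day 1, with 197, 225 and 175 CPM and then 101, 79.3 and 101 CPM (-1.08 ± 0.17). Atf3, a stress-induced repressor, had 187, 169 and 132 CPM and then 124, 77.2 and 86.4 CPM and was not called (-0.77, adjusted p = 0.217); in a fit of the 6 libraries alone its adjusted p was 0.0203 (0.0203 to 1 over the alternatives). Srf, the serum response factor, went against the list (0.41 ± 0.12), and no gene rose without day 1 replicate B or day 2 replicate A.

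Among MAPK feedback genes and EGF receptor ligands, 6 of 22 fell (27.3%) and 3 rose (13.6%), beside 17.5% and 17.0% of all genes. The median was -0.27, and 10 fell without day 7 replicate C. Errfi1, a feedback inhibitor of the EGF receptor, went from 661, 950 and 563 CPM to 249.4, 211 and 233 CPM (-1.65 ± 0.19), and Egfr, the receptor, from 157, 173 and 147 CPM to 90.6, 95.5 and 98.9 CPM (-0.74 ± 0.10). The ligand Tgfa rose from 13.3, 16.3 and 16.1 CPM to 39.6, 44.8 and 34.3 CPM (1.38 ± 0.13), and so did Btc, betacellulin, from 5.66, 7.96 and 7.91 CPM to 21.9, 30.4 and 20.1 CPM (1.75 ± 0.39). Ereg, epiregulin, had 0 counts on day 0 and rose by 1.53. These ligands had higher means again on day 4. With library sizes alone 6 members of the list rose and 5 fell.

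NRF2 targets, the enzymes of oxidant and electrophile defence, fell from a high level. Of 24, 15 fell and 1 rose (median -0.45); with library sizes alone 10 fell and 4 rose. Hmox1, heme oxygenase (ENSMUSG00000005413), went from 3403, 4218 and 2601 CPM to 1181, 997 and 854 CPM (-1.75 ± 0.20, adjusted p = 9.57e-06). Srxn1, which repairs peroxiredoxins, went from 2798, 2599 and 2149 CPM to 1175, 761 and 798 CPM (-1.47 ± 0.15), and Gclc, the catalytic subunit of glutathione synthesis, from 735, 823 and 536 CPM to 307, 275 and 229 CPM (-1.37 ± 0.16). In these genes each day 2 library was below each day 1 library. On day 2 Hmox1 still held 28.9% of its day 1 rise and Srxn1 32.8%, while Gclc was back near its day 0 mean of 314 CPM. In all 17 of the 24 were above day 0 on day 2, against 22 on day 1, beside 38.9% and 33.1% of all genes. Abcc1, a glutathione conjugate exporter, rose by 0.61, and without day 7 replicate C 2 members rose. Metallothioneins, which bind zinc and copper, moved the same way: Mt1 went from 1178, 1246 and 1080 CPM to 456, 375 and 423 CPM (-1.48 ± 0.21) and Mt2 from 280, 312 and 246 CPM to 112, 102 and 111 CPM, with the zinc exporter Slc30a1 lower by 1.11. In that list of 9 genes 4 fell and 2 rose, the iron importers Tfrc (1.15) and Slc11a2 (0.49), and the sign of its median (-0.20) turned with library sizes alone (0.01).

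In the ATF4 list of the integrated stress response, 7 of 34 fell (20.6%) and 2 rose (5.88%), beside 17.5% and 17.0% of all genes. The median of -0.17 turned to 0.04 with library sizes alone, where 5 fell and 5 rose. On day 2, 29 of the 34 were above day 0 (38.9% of all genes), and on day 1 there were 30 (33.1%). Asns, asparagine synthetase, had 326, 290 and 313 CPM and then 225, 302 and 288 CPM, which overlap (-0.19, adjusted p = 0.57). Ddit3, the factor CHOP, had 57.7, 65.4 and 57.2 CPM and then 44.0, 29.7 and 40.8 CPM (-0.65, adjusted p = 0.178), and passed without day 7 replicate C (adjusted p = 0.000711, the lowest of its alternatives, which reached 1). Slc3a2, a subunit of amino acid exchangers, did fall, from 926, 967 and 864 CPM to 484, 417 and 430 CPM (-1.05 ± 0.11), to below its day 0 mean of 726 CPM. Without day 7 replicate C, 13 of the 34 fell. Phgdh, of serine synthesis, and Sesn2, which reports low leucine, were the members that rose, by 0.40 and 0.62. The number that rose was 1 without day 1 replicate A, day 1 replicate C or day 2 replicate B and 0 without day 1 replicate B or day 2 replicate C, and Sesn2 was also lost without day 2 replicate A (adjusted p = 0.0542).

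The Asns promoter is shown because the C/EBP-ATF response element, searched as TGATGCAA and TGATGAAA on both strands, was frequent in this list. The line gives the 150 bases before the RefSeq start on the minus strand at chr6:7693210-7693359, with the match in capitals.
Asns: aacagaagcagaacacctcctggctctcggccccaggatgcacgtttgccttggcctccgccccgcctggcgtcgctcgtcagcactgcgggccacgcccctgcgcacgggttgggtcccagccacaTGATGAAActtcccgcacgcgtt
In the 300-base windows 9 of the 29 ATF4 list genes found in the table held a match (31.0%), against 2.16% of 27025 genes. By window the shares were 26.5% and 1.90%. Of the other motifs searched, the AP-1 site TGAGTCA was in 1 of 21 genes of the AP-1 list (4.76%) and in 5.95% of all genes, and the antioxidant response element TGACNNNGC in 9 of 20 NRF2 targets (45.0%) and in 14.0% of all genes. By window these shares were 3.23% and 5.20%, and 38.5% and 12.4%.

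Of 22 cytosolic and mitochondrial heat shock genes 5 fell (22.7%) and 1 rose (4.5%), beside 17.5% and 17.0% of all genes. The median was -0.13, but 0.08 with library sizes alone, where 3 fell and 3 rose. Without day 7 replicate C 8 fell, and without day 2 replicate B 2 rose. Hspa8, the constitutive HSC70, went from 4112, 5424 and 3543 CPM to 3145, 2652 and 2583 CPM (-0.64 ± 0.16). Hspa1a, the inducible HSP70, had 146, 223 and 124 CPM and then 162, 65.1 and 71.9 CPM, with replicate A of day 2 inside the day 1 range (-0.72, adjusted p = 0.244, or 0.0366 without day 7 replicate C, the lowest of its alternatives, which reached 1). Of 22 genes of the endoplasmic reticulum unfolded protein response 12 rose (54.55%) and 4 fell (18.2%), with a median of 0.41. On day 1, 12 of them had been below day 0 and 5 above it, beside 37.1% and 33.1% of all genes. Their mean summed level was 6014, 4814 and 5641 CPM on days 0, 1 and 2. Pdia4, a disulfide isomerase, went from 89.0, 91.7 and 78.7 CPM to 130, 169 and 127 CPM (0.71 ± 0.14) and Hyou1, a folding chaperone, from 32.3, 31.2 and 37.4 CPM to 50.2, 54.1 and 46.9 CPM. The members that fell were the sensor Atf6 (-0.36), the factor Xbp1 (-0.44), the degradation factor Herpud1 (-0.78) and the cochaperone Dnajb9 (-0.79), and 2 fell without replicate B of day 1 or of day 2.

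Inflammatory genes went in both directions. In the list of NF-kB factors, chemokines and cytokines, 10 of 36 rose and 3 fell (median 0.33), or 6 fell without day 7 replicate C. Ccl20, a chemokine for lymphocytes and dendritic cells, rose from 13.5, 13.4 and 24.6 CPM to 89.9, 190 and 166 CPM (3.11 ± 0.38), and Traf1, an NF-kB-induced adaptor, from 4.63, 4.28 and 4.79 CPM to 19.2, 17.5 and 20.8 CPM (2.07 ± 0.25). Nfkb2, an NF-kB subunit, rose by 0.72. Cxcl10, an interferon-induced chemokine, fell from 40.2, 37.8 and 27.9 CPM to 10.03, 5.68 and 6.94 CPM (-2.22 ± 0.47), Il6, interleukin 6, from 9.94, 9.11 and 6.31 CPM to 2.99, 1.64 and 2.22 CPM (-1.88 ± 0.36) and Csf1, the macrophage growth factor, from 213, 216 and 163 CPM to 71.7, 71.1 and 71.1 CPM (-1.47 ± 0.13). No library of the 2 days overlapped in these 5 genes with values.

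**Figure D3:**
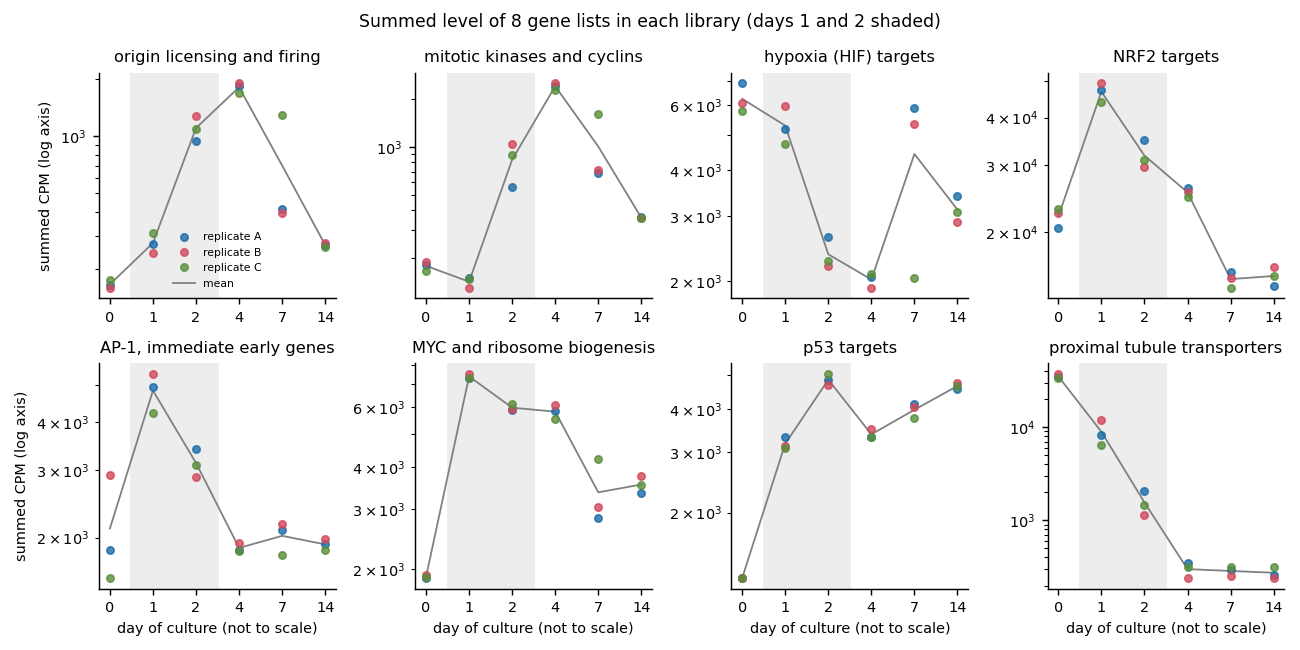
Summed CPM of 8 gene lists in each library on a log axis against the day of culture (days evenly spaced, days 1 and 2 shaded; points are libraries, lines join day means). Between days 1 and 2 origin licensing and mitotic kinases rise (269 to 309 CPM and 129 to 149 CPM on day 1, 939 to 1281 CPM and 561 to 1042 CPM on day 2), p53 targets have their highest mean on day 2, and the NRF2, AP-1 and MYC lists come down from their day 1 maximum.

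Genes with their maximum on day 1 alone were counted by a fixed rule, called higher on day 1 than on each of the other 5 sampled days. There were 728 (3.88% of genes tested), and the 5 contrasts share the day 1 libraries. A peak here means the highest of the sampled days, and hours before or between them were not sampled. By the rule these genes fell from day 1 to day 2, with a median log2 fold change of -0.58, and 184 fell by 2-fold or more. The median gene kept 41.1% of its day 1 rise on day 2. On that day 525 were still above day 0, 176 were not called against it and 27 were below it. Of the genes in the fixed lists 67 peaked on day 1: 12 of MYC and ribosome biogenesis, 8 of the NRF2 list, 6 of AP-1, 5 of ATF4, 4 each of hypoxia, heat shock and tubule injury, and fewer in the others. None of the 5 replication and mitosis lists had a member among them. The rule nearly fixed that, as it asks for a fall from day 1 to day 2 and 140 of their 147 genes rose. In all 712 genes fell from day 1 to day 2 and were still above day 0.

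By the rule of the largest drop to the next highest day, the leading peak gene was Prr9, a gene of the epidermal differentiation cluster (ENSMUSG00000056270, chromosome 3, 92122204 to 92123947). It had 0 counts on day 0, then 13.8, 20.6 and 19.9 CPM on day 1 and 1.08, 0.635 and 0.977 CPM on day 2 (-4.32 ± 0.43). Cornified envelope genes of the same region, Sprr1a (1475, 1407 and 1229 CPM, then 456, 195 and 326 CPM) and Sprr2d (9.27, 15.5 and 15.7 CPM, then 3.66, 2.91 and 4.48 CPM), were also among the 15. The members of the Sprr2 family are near-identical, so reads could be split among them. Cftr, the chloride channel mutated in cystic fibrosis, went from 72.7, 76.9 and 65.1 CPM to 18.1, 8.40 and 16.8 CPM (-2.31 ± 0.31), with 9.26% of its rise left. Hsd17b2, which inactivates estradiol and testosterone, went from 10.6, 13.1 and 16.6 CPM to 2.26, 0.747 and 1.79 CPM, and Stc1, the hormone stanniocalcin, from 28.5, 43.0 and 31.8 CPM to 13.2, 9.78 and 7.41 CPM. Fabp4, a lipid carrier of adipocytes, endothelium and macrophages, went from 45.7, 80.6 and 44.9 CPM to 16.1, 11.1 and 14.6 CPM. The libraries also did not overlap in Tmem108 (-2.61), Cachd1 (-1.81), Car9, Cxcl10 and Rn7sk (-2.27), a small nuclear RNA that carries no polyA tail. Nor did those of Myo18b, which nearly met and is given below.

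The remaining 3 of the 15 rest on uneven libraries. Myo18b, a muscle myosin, had 27.5, 20.2 and 10.01 CPM and then 9.58, 2.73 and 1.72 CPM (-2.03 ± 0.58, adjusted p = 0.017), close to meeting, and its call was lost without day 1 replicate A, day 2 replicate B or day 2 replicate C (adjusted p = 0.0729, 0.0715 and 0.0512, 0.000644 to 0.201 over the alternatives). Apol9a had 19.0, 0.813 and 16.3 CPM and then 3.09, 0.672 and 1.28 CPM, and Apol9b 19.95, 1.03 and 14.8 CPM and then 3.09, 0.821 and 1.38 CPM. In both, day 1 replicate B lay among the day 2 libraries. They are near-identical neighbours induced by interferon, and neither call held without day 1 replicate A, day 2 replicate B or day 2 replicate C (adjusted p = 0.0586, 0.0627 and 0.0535 for Apol9a, 0.0687, 0.0629 and 0.0526 for Apol9b; 0.000624 to 0.156 and 0.000798 to 0.124 over the alternatives).

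**Figure D4:**
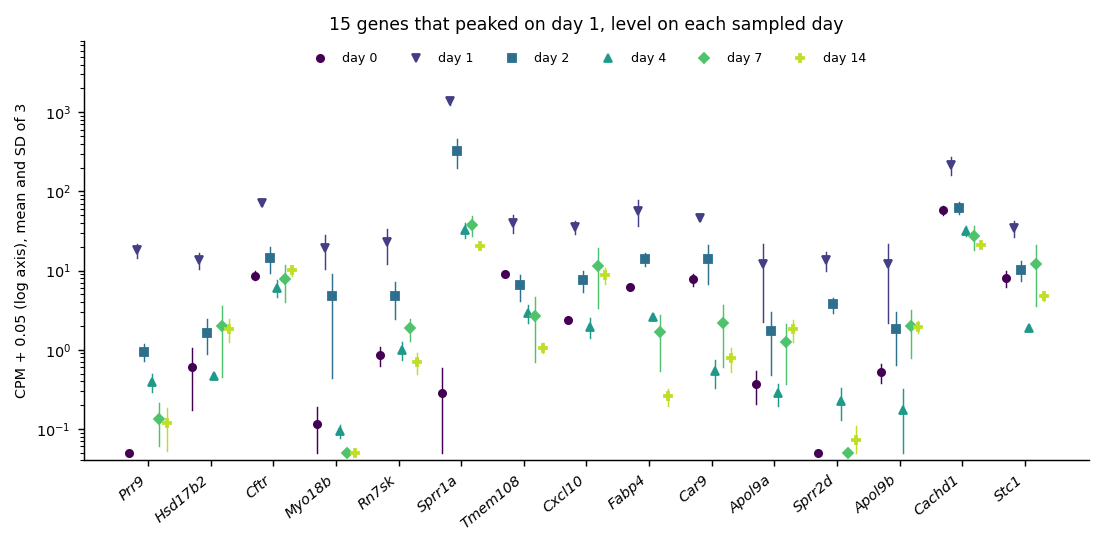
Mean level and SD (n = 3, error bars) of the 15 leading genes that peaked on day 1, as CPM + 0.05 on a log axis, with a marker for each sampled day (bars end at the axis floor of 0.05). In each gene the day 1 mean is the highest; Prr9 and Sprr2d were at 0 counts on day 0, and the wide bars of Apol9a and Apol9b on day 1 come from replicate B at 0.813 and 1.03 CPM.

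Repair and injury genes moved in both directions. Among 30 genes of tubule injury and dedifferentiation, 11 rose and 6 fell (median 0.25), or 7 rose without day 1 replicate A, day 1 replicate C or day 2 replicate B, and 3 fell without day 2 replicate B. Anxa1, an annexin, rose from 43.0, 44.2 and 39.7 CPM to 110, 139 and 111 CPM (1.502 ± 0.13), and Krt7, a keratin of simple epithelium, from 301, 376 and 342 CPM to 679, 1055 and 726 CPM (1.27 ± 0.15). Plaur, the urokinase receptor, fell from 786, 793 and 691 CPM to 514, 411 and 444 CPM (-0.73 ± 0.11). Havcr1, kidney injury molecule 1, had 1583, 1208 and 2249 CPM and then 1279, 636 and 1602 CPM, which overlap (-0.52, adjusted p = 0.518). Of 28 extracellular matrix and contractile genes 10 rose and 1 fell (median 0.63), or 5 and 6 rose without day 1 replicate C or day 2 replicate B. The gene that fell, Lamc1, was not called without day 1 replicate A, day 1 replicate B or day 2 replicate C (adjusted p = 0.0762, 0.0846 and 0.105, and up to 1 over the alternatives), while 3 fell without day 7 replicate C. Thbs1, thrombospondin 1, rose from 169, 172 and 138 CPM to 409, 733 and 477 CPM (1.75 ± 0.16), and Flna, filamin A, from 386, 415 and 410 CPM to 804, 983 and 730 CPM (1.05 ± 0.17). YAP and TAZ targets were split, 5 higher and 5 lower of 20: Ankrd1, a mechanically induced gene, rose from 36.0, 36.5 and 26.7 CPM to 68.3, 87.2 and 75.7 CPM, and Wwtr1, which encodes TAZ, fell by 0.71. The count higher was 3 without day 2 replicate B, that lower 2, 2 and 3 without day 1 replicate B, day 2 replicate B or day 2 replicate C, and the list's median (-0.03) turned to 0.19 with library sizes alone and to 0.01, 0.01 and 0.05 without day 1 replicate A, day 1 replicate B or day 2 replicate C. Of 21 squamous keratin, cornified envelope and serpin genes 8 rose and 3 fell (5 fell without day 7 replicate C): Lamb3, a chain of an epidermal laminin, rose by 1.298, and Sprr1a, Sprr2h (-1.65) and Cnfn (-1.31) fell.

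Proximal tubule transporters went on falling through the step. Of 34 transporters and receptors 33 fell and none rose (median -2.84), after all 34 had fallen from day 0 to day 1 (37.1% of all genes). Their summed level went from 8319, 11970 and 6447 CPM to 2066, 1130 and 1473 CPM. Slc22a6, the organic anion transporter OAT1, went from 139, 237 and 119 CPM to 12.2, 5.34 and 9.94 CPM (-4.17 ± 0.33). Hnf4a, the nuclear receptor of differentiated tubule, went from 52.4, 89.6 and 42.1 CPM to 14.2, 7.92 and 13.8 CPM (-2.36 ± 0.51). Of 18 tubule transcription factors 9 fell and 3 rose, with Tfcp2l1 (1.24) and Lhx1 (0.98) among those against the list. The number lower was 5 without replicate B of day 1 or of day 2, and 5 rose without day 1 replicate C or day 7 replicate C. Their summed level did not fall, at 760.1, 940.9 and 806.4 CPM and then 783.8, 890.5 and 796.6 CPM, which overlap. Among the 10 largest falls by the same rule were Cndp1 (-5.68), Pck1 (-5.35), G6pc (-5.13), Acnat2 (-5.07), Dpys (-4.93), Slc22a22 (-4.61), Keg1 (-4.53), Inmt (-4.45) and Bhmt2 (-4.42). Pck1 and G6pc make glucose, and Pck1 went from 375, 836 and 182 CPM to 18.9, 6.05 and 9.13 CPM. These 9 had fallen already on day 1 relative to their day 0 means. Fatty acid oxidation (22 of 27 lower, median -1.32), the nuclear-encoded respiratory chain (26 of 28, -0.53) and mitochondrially encoded genes (12 of 13, -1.26) fell beside them, with none higher.

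Markers of other cells also moved. Loop of Henle markers summed to 402, 482 and 206 CPM on day 1 and 88.4, 42.7 and 41.9 CPM on day 2 (6 of 9 lower, 1 higher, none higher without day 1 replicate B, day 1 replicate C or day 2 replicate A), and markers of the distal tubule and collecting duct to 493, 526 and 346 CPM and then 229, 178 and 181 CPM (8 of 17 lower, 2 higher; 5 lower without day 2 replicate B). Red blood cell markers summed to 23.0, 31.3 and 22.9 CPM and then 2.99, 1.46 and 2.53 CPM (6 of 6 lower). Endothelial markers summed to 272, 387 and 226 CPM and then 210, 242 and 172 CPM, which overlap (4 of 13 lower, 1 higher; 2, 1, 1 and 8 lower without day 1 replicate A, day 1 replicate B, day 2 replicate C or day 7 replicate C, and none higher without day 1 replicate A, day 1 replicate C or day 2 replicate B). Fibroblast, pericyte and mesangial markers summed to 117, 143 and 88.7 CPM and then 160, 221 and 137 CPM, which overlap (5 of 12 higher, 1 lower; 3 and 2 higher without day 1 replicate C or day 2 replicate B, none lower without day 1 replicate B or C or any day 2 replicate, and 2 lower without day 7 replicate C). Macrophage and lymphocyte markers summed to 66.0 to 69.4 CPM and then 33.1 to 48.6 CPM. The sum did not stand for the list, as 8 of 12 tested members had a positive log2 fold change (median 0.65). By the test 1 of 12 was higher and 2 lower (8.33% and 16.7%, beside 17.0% and 17.5% of all genes). None was higher without day 1 replicate A, day 1 replicate B or day 2 replicate C. Without day 1 replicate A or day 2 replicate C 1 was lower, and without replicate B of day 1 or of day 2 none was. Podocyte and parietal cell markers summed to 753 to 1017 CPM and then 827 to 907 CPM (3 of 10 higher, 1 lower, or 2 lower without day 2 replicate C). The falls of the distal segments ran alongside that of the proximal transporters, and the rise of fibroblast markers alongside that of matrix genes such as Thbs1. Their part in those results was not tested. The largest log2 fold change was 3.2982 in both the fibroblast and the matrix list, so these lists may share members.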

How the data were processed

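PolyA-selected RNA of 18 culture libraries was sequenced, and the deposited tables hold RSEM estimated counts and TPM per gene. Per the submitters' processing notes, the authors' tools were RSEM 1.3.3 and STAR 2.7.8a, with FastQC 0.11.8 and cutadapt 2.3, on genome build GRCm38. Annotation release and strand setting: not given in the sources used here. Overlapping, antisense and near-identical genes are therefore uncertain.

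Estimated counts deposited by the authors were rounded. The tables list 55426 entries; 5 reporter entries were left out. Genes were filtered by filterByExpr, scaled by TMM and fitted with edgeR 4.0.16 (R 4.3.3), with Benjamini-Hochberg adjustment over the 18754 genes tested. The standard error is the absolute log2 fold change over the square root of F. The authors' deposited TPM values entered a limma 3.58.1 check on log2(TPM + 1). DESeq2 1.42.0 and each library left out in turn were other alternatives. In a test on simulated data for this comparison (18456 genes), 21, 43, 50 and 50 of 50 genes changed by 1.5, 2, 4 and 8-fold were found. In it 9 unchanged genes were called. Those counts were drawn gene by gene with the trended dispersion, with most genes unchanged and no shift shared across a library. The rates therefore do not carry over to the real libraries. The deviations from day means of same-letter libraries correlated at 0.03, 0.12 and 0.42 (A, B, C) between days 1 and 2, which does not pair them by the rule used (every pair over 0.1), and at 0.20, 0.16 and 0.29 between days 2 and 4, which does; this pairing is read from the data, not the labels.

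The gene lists, members and tests were chosen with earlier results of these data known. Genes were named by rule: a fixed set, the 10 largest rises and falls (at least 10 CPM, libraries not overlapping), up to 4 members per list by adjusted p and those against their list, and the 15 leading genes that peaked on day 1. Bnip3, Cdc6, Cdk2, Cdkn1b, Cdkn2a, Cdt1, Ckap2, Dna2, Eda2r, Ldha, Lrp2, Mdm2, Phlda3, Pkm, Pttg1, Spc25, Tpx2, Trp53, Vegfa, Wee1 and Zwint fall outside this rule and were chosen after their values were seen. Gene positions are those of GENCODE vM21, and promoters are from RefSeq (GRCm38.p6). A few results are not reported here.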

Additional observations from a re-analysis of the deposited data

How the results depend on the processing

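The number of genes higher (3186) was 5492 with library sizes alone, 5288, 5376 and 5063 with limma on log2(TPM + 1), log2(TPM + 0.1) and log2(TPM + 1) without a filter, and 407 when tested against a fold of 2. The number lower (3283) was 2185, then 1832, 1775 and 1930, and 644. Genes that peaked on day 1 (728) numbered 410, then 331, 282 and 479, and 27, and genes lower but still above day 0 (712) numbered 457, then 387, 352 and 372, and 14. With each library left out in turn these counts ran from 2390 to 4085, 2487 to 4179, 510 to 949 and 469 to 1010. The highest values came without day 7 replicate C, and 469 came without day 2 replicate B. Without a filter on low counts they were 2659, 2890, 582 and 532, and with DESeq2's Wald test the first 3 were 3119, 3749 and 819. A fit of the 6 libraries alone gave 3005 and 3152; the peak rule needs all days and was not run there. E2f4 turned to 0.01 in the 3 limma settings (0.0142, 0.0143 and 0.0142). With a replicate block the counts were 3248, 3315, 742 and 728, and among 238 named genes 1 call was lost; from day 2 to day 4 it called 107 of the 147 replication and mitosis genes higher (99 without it) and no list count given for that step moved by over 1.5 times. The causes of these differences were not tested. Genes below 1 CPM on day 1, such as Cenpf, rest on few counts, and changes under 2-fold were found less often in simulated data.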
